A study of Mus musculus with 7 samples.

Results

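Cytochrome P450 enzymes are the haem monooxygenases with which the liver oxidises drugs, steroids, bile acids, fatty acids and vitamins, and the chromatin at their genes was compared here between young and aged mouse liver. Members were the accessible regions that overlapped the body of a protein-coding Cyp gene of the GENCODE M21 annotation, or the 2000 bp on either side of it. This rule took 197 of the 55680 regions of the series. Of 99 Cyp genes, 76 had at least 1 such region and 55 had one at a promoter, defined as the transcription start site (TSS) ± 200 bp of any transcript.

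The series profiled bulk liver of C57BL/6N male mice on a standard diet by Omni-ATAC-seq, in which a transposase inserts sequencing adapters into exposed DNA of isolated nuclei. There were 3 samples from young mice aged 3 months and 4 from aged mice aged 18 months, with no other treatment or genetic change. The deposited design text traces the aged samples to 3 animals, with different lobules of 1 animal counted as separate samples, and does not say which samples share an animal, while the published methods treat each aged sample as a biological replicate. Counts in regions summed to between 4474652 and 25461110 per sample. In bulk tissue, fewer cells of a type and less accessibility per cell cannot be told apart. The labelled tissue was checked on promoters of marker genes: all 8 hepatocyte markers had a promoter region, while 1 of 6 Kupffer cell, 3 of 5 sinusoidal endothelial, 3 of 5 stellate, 2 of 4 cholangiocyte and 0 of 5 lymphocyte markers had one. The summed level of the hepatocyte promoters was 786 to 881 CPM (counts scaled to the depth of the library) in young and 890 to 1107 in aged samples, or 613 to 697 and 615 to 807 without Apoa1. That of the endothelial promoters was 59.4 to 65.4 in young and 48.4 to 80.7 in aged samples, that of the cholangiocyte promoters 41.7 to 49.5 and 36.7 to 54.3, that of the 1 Kupffer cell promoter 2.22 to 2.65 and 0.588 to 2.80, and that of the stellate promoters was 26.6 to 29.1 in young and 16.1 to 23.5 in aged samples. Of these markers only the promoter of Apoa1, a plasma lipoprotein gene, passed the test (log2 fold change 0.53, adjusted p = 0.033 by edgeR's quasi-likelihood test), and the part of cell composition in the results below was not tested.

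P450 enzymes sit in the endoplasmic reticulum or in mitochondria and receive electrons from partners such as P450 oxidoreductase. The enzymes of the first families in the nomenclature mostly handle foreign compounds and are switched on by ligand-activated factors such as AHR, PXR and CAR, while others make or clear bile acids, steroid hormones, vitamin D and retinoic acid. In the mouse many of them lie in tandem clusters of close paralogs, so that part of a short-read signal cannot be assigned to 1 copy. Of the 197 regions, 26 aligned almost identically to another place in the genome, at 95% identity or more over at least 80% of the region.

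The promoters of the P450 genes were poor in CpG dinucleotides and held the letters TATAAA more often than promoters at large. RefSeq promoter windows of 300 bases on GRCm38, mostly upstream of a start, were matched by symbol for 76 of the 99 genes and gave 86 windows. The median CpG content was 0.833 per 100 bp, against 2.33 over all 32851 windows. TATAAA, the core of the TATA box, was found on either strand in 39.5% of the P450 windows and in 13.6% of all windows. AGGTCA, a core element of nuclear receptor sites, was found in 25.6% and 16.3%, TTGCNNAA, a C/EBP-type site, in 24.4% and 10.8%, and GTTAAT, a part of HNF1-type sites, in 12.8% and 7.1%. GCGTG, the core of the site bound by AHR with ARNT, was found in 19.8% and 32.4%, and CACGTG, the E-box, in 2.33% and 7.15%. The search covered both strands, and a match describes letters and not a bound site.

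Below are 4 promoter windows from RefSeq whose regions gained accessibility with age, chosen to show a CpG-poor pair and a CpG-rich pair, and the central 300 bases of a region inside Cyp1a2 that lost it, read from the GRCm38 genome. Capitals mark matches to any of the 6 motifs on either strand, and promoters are written along the strand of the gene. The Cyp2j5 window is at chr4:96664070-96664369 on the minus strand, holds TATAAA and AGGTCA, and has 0.667 CpG per 100 bp. The Cyp2c67 window is at chr19:39648993-39649292 on the minus strand, holds TATAAA and TTGCNNAA, and has 0.333 CpG per 100 bp. The Cyp2r1 window is at chr7:114562923-114563222 on the minus strand, holds GCGTG, and has 7.33 CpG per 100 bp. The Cyp26a1 window is at chr19:37697558-37697857 on the plus strand, holds TATAAA, and has 8.67 CpG per 100 bp. The Cyp1a2 stretch is at chr9:57681945-57682244, is written on the plus strand, which is opposite to the gene, and holds CACGTG.
Cyp2j5: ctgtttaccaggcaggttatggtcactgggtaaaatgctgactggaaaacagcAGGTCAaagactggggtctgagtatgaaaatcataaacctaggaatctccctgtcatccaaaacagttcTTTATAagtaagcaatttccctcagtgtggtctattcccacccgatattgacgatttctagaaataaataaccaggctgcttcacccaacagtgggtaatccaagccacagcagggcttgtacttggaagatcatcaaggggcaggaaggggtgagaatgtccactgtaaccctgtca
Cyp2c67: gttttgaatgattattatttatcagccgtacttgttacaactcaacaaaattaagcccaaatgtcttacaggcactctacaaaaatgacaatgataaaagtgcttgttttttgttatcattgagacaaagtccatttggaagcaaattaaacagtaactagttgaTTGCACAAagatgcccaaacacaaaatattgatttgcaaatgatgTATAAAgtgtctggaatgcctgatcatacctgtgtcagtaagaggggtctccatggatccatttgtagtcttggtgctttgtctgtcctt
Cyp2r1: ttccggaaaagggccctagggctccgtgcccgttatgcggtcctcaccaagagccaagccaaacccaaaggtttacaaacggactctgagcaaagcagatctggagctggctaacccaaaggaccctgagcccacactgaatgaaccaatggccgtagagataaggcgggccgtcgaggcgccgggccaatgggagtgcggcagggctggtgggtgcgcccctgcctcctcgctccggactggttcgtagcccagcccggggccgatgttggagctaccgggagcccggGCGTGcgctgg
Cyp26a1: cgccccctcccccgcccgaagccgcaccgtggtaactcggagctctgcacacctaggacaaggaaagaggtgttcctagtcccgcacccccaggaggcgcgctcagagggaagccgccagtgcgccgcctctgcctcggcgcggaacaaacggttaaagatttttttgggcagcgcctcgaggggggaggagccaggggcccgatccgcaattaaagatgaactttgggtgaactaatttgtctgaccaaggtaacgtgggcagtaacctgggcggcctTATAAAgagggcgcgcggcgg
Cyp1a2 internal region: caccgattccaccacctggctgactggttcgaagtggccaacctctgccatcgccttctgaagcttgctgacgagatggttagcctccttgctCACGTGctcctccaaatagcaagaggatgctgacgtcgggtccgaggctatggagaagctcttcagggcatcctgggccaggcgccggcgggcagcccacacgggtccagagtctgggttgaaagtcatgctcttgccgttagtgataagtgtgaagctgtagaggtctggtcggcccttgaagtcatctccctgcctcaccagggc

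With age, 11 P450 regions became more accessible and 6 less accessible (edgeR quasi-likelihood test, Benjamini-Hochberg adjusted over all regions at 0.05). The gains lay at Cyp2j5, Cyp2j11, Cyp2c67, Cyp2c70, Cyp3a13, Cyp2r1, Cyp26a1 and Cyp46a1, and the losses at Cyp1a2, Cyp2d9, Cyp2d10 and Cyp2a12. The 17 called regions were 8.63% of the P450 regions, where 5.74% of all regions were called. Gains made up 5.58% against 2.44% of all regions, and losses 3.05% against 3.3%. The excess of gains was smaller with DESeq2, the test of the study's methods (7.11% against 4.96%), and with offsets fitted on GC content (8.63% against 6.28%), where gains were 58.8% and 63.1% of all calls in place of 42.5%. Before adjustment 49 P450 regions (24.9%) and 24.6% of all regions had p under 0.05. The fitted log2 fold changes of all 197 ran from -1.32 to 1.56. Their median was 0.11, against -0.04 over all regions, and 115 of them (58.4%) were above 0, against 46.6% of all. Every aged sample exceeded every young one at 27 P450 regions (13.7%; 10.2% of all regions) and lay below every young one at 14 (7.11%; 11.6% of all regions). Outside the Cyp2c subfamily the median of the 154 remaining regions was 0.00. They held 7 gains (4.55%; 2.44% of all regions) and 6 losses (3.90%; 3.3% of all regions).

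These counts depended on single libraries. Leaving out young 1 left 1 gain and 1 loss, young 2 left 5 and 3, young 3 left 6 and 7, aged 1 left 3 and 3, aged 3 left 3 and 4, and aged 4 gave 16 and 4. The number of calls over all regions moved with them, to 188 without young 1 and 4230 without aged 4, from 3198. Without young 1, gains were 0.51% of the P450 regions and 0.099% of all regions, and losses 0.51% and 0.24%. Without aged 4, gains were 8.12% and 2.93%, and losses 2.03% and 4.67%. Total counts in place of TMM scaling shifted the median of all regions to -0.15 and that of the P450 regions to -0.00. They gave 6 gains and 10 losses, so that 37.5% of the calls were gains in place of 64.7%. Over all regions 15.6% of the calls were gains, in place of 42.5%. The gains were 3.05% of the P450 regions against 0.98% of all regions, and the losses 5.08% against 5.26%. Offsets fitted on mean abundance gave 3 gains and 4 losses, 42.9% gains, and aged 1 and 3 summed as 1 sample gave the same numbers. In both, gains were 1.52% and losses 2.03% of the P450 regions. Over all regions they were 0.44% and 0.75% with abundance offsets, and 0.48% and 1.24% with the summed pair. All 17 called regions kept their direction in each of 22 alternative fits (other scalings, offsets, filters and tests, each sample left out, pairs of aged samples summed, and a replicate block). As young and aged samples did not overlap at any of the 17, leaving out or summing samples could hardly have reversed a direction.

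**Figure D1:**
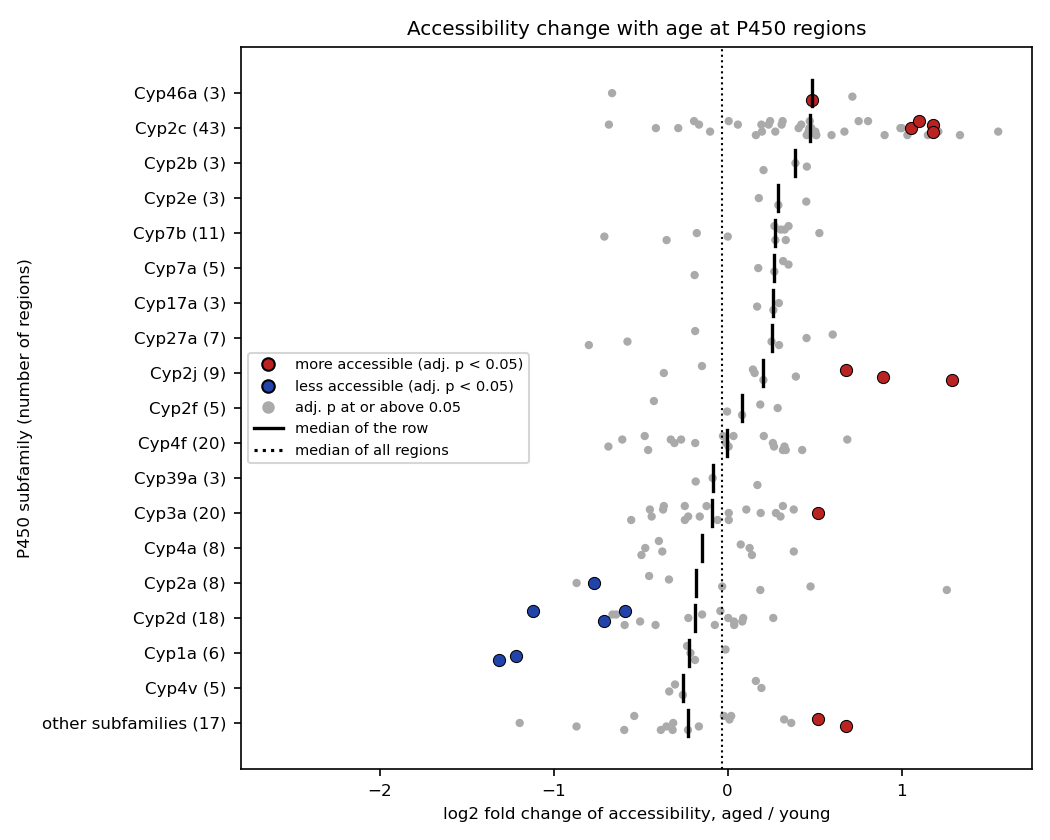
Log2 fold change of accessibility, aged over young, at each P450 region (points), by subfamily with the number of regions in parentheses; red and blue points had an adjusted p under 0.05, black bars are medians and the dotted line is the median of all regions. The Cyp2c points lie mostly to the right of 0 (37 of 43), all 6 Cyp1a points lie to the left of it, and the 3 Cyp2j gains run from 0.68 to 1.29. A region that lies near genes of different subfamilies is drawn once.

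At promoters, 6 of 61 P450 regions gained accessibility (9.84%; 4.48% of all promoter regions) and 2 lost it (3.28%; 2.06% of all promoter regions). Their median change was 0.17 on the log2 scale, against 0.09 over all promoter regions, and 38 of 61 (62.3%) were above 0, against 61.1%. In 11 promoter regions (18.0%) every aged sample lay above every young one, against 20.4% of all promoter regions. Both losses, in Cyp1a2 and Cyp2d9, sat at the start of a transcript annotated as a retained intron and not at the start of the coding transcript. With promoters of protein-coding transcripts alone, there were 6 gains (11.3%) and 0 losses in 53 regions. This split was made after both losses were seen at other starts, so its 0 losses followed from the choice. The share over all promoters of protein-coding transcripts is not given. Each P450 region was classed by its own P450 gene, while all regions were classed by any gene. Among the other P450 regions, the 66 intronic ones held 4 gains (6.06%; 1.42% of all intronic regions) and 1 loss (1.52%; 2.87%). Their median was 0.20 against -0.09. That loss also covered the start of the predicted gene Gm49421, so it counts as a promoter among all regions. The 38 exonic ones held 1 gain (2.63%; 1.63% of all exonic regions) and 0 losses (5.51% of all exonic regions), with a median of 0.01 against -0.13. The 18 regions in the flank downstream of a gene held 3 losses (16.7%; 3.3% of all regions and 4.38% of all intergenic regions) and 0 gains. Their median was -0.25, against -0.07 over all intergenic regions. The 14 in the upstream flank held 0 calls (6.39% of all intergenic regions), with a median of 0.09.

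The Cyp2j genes, whose enzymes epoxidise arachidonic acid and other fatty acids, held 3 gains among 9 regions (33.3%; 2.44% of all regions). At the promoter of Cyp2j5 (chr4:96663549-96665399), the CpG-poor window printed first above, the level was 48.6, 55.6 and 52.5 CPM in young samples 1 to 3 and 79.5, 85.5, 86.4 and 84.4 CPM in aged samples 1 to 4. The lowest aged sample thus stood well above the highest young one, and the mean went from 52.2 ± 3.51 (SD, n = 3) to 83.9 ± 3.07 (SD, n = 4). The log2 fold change was 0.68 ± 0.11 (SE; adjusted p = 0.0077, edgeR). It was called in 21 of the 22 alternatives, the exception being offsets on mean abundance (log2 fold change 0.42, adjusted p = 0.063).

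Cyp2j11, a paralog in the same cluster of 8 genes over 637 kb on chromosome 4, gained accessibility at 2 intronic regions. The region at chr4:96325001-96326000 measured 6.29, 6.20 and 8.88 CPM in young and 16.3, 20.2, 21.01 and 11.6 CPM in aged samples. All aged samples exceeded all young ones, aged 4 by the least, and the log2 fold change was 1.29 ± 0.23 (SE; adjusted p = 0.012, edgeR). The region at chr4:96330460-96331734 measured 8.52, 10.2 and 11.7 CPM in young and 17.0, 22.9, 20.3 and 15.02 CPM in aged samples, again with no overlap (0.89 ± 0.19, adjusted p = 0.020). They were called in 20 and 17 of 22 alternatives. The former was lost without young 1 or young 2. The latter was lost without young 1, young 2, aged 1 or aged 3, and with aged 1 and 3 summed. Their adjusted p went up to 0.064 and 0.091 over all alternatives. The promoters of Cyp2j6 and Cyp2j9 did not pass the test, at 0.16 (adjusted p = 0.59) and 0.15 (adjusted p = 0.68).

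The Cyp2c subfamily, epoxygenases and drug hydroxylases with many close copies, had the most regions and the highest median of the larger subfamilies. In 37 of its 43 regions (86.0%) the fitted change was above 0 (median log2 fold change 0.47), and 4 were called, all as gains (9.30%; 2.44% of all regions). In the cluster of 14 genes that spans 1180 kb of chromosome 19, 10 genes had regions, and 33 of 38 regions were above 0 (median 0.49). Over the 22 alternatives the median ran from 0.28 to 0.79, the number of gains from 0 to 7, with 0 losses throughout, and the number above 0 from 34 to 41 in the fits that kept all 43 regions. With at least 10 counts in every sample, 29 of 31 were above 0. The lowest median, 0.28, came without young 1, which left 0 gains, and without aged 1, which left 1. The same subfamily held 16 of the 43 P450 regions with the widest spread between samples of one age, described further on.

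Cyp2c67 held 3 of these gains. Its intronic region at chr19:39645841-39648329 measured 13.6, 19.9 and 18.1 CPM in young and 51.3, 32.6, 42.7 and 29.7 CPM in aged samples. The groups did not overlap, and the mean went from 17.2 ± 3.23 (SD, n = 3) to 39.1 ± 9.90 (SD, n = 4), a log2 fold change of 1.18 ± 0.20 (SE; adjusted p = 0.0098, edgeR). Only the fit without young 1 lost this call, at an adjusted p of 0.051. The neighbouring region at chr19:39644283-39645624 measured 9.53, 15.005 and 10.4 CPM in young and 31.3, 25.7, 26.4 and 15.4 CPM in aged samples, and aged 4 stood just above the highest young sample (1.06 ± 0.23, adjusted p = 0.022). The promoter at chr19:39648820-39649230, whose sequence has a copy elsewhere at 95.6% identity, measured 4.63, 5.10 and 7.73 CPM in young and 18.2, 8.83, 12.6 and 8.15 CPM in aged samples (1.10 ± 0.29, adjusted p = 0.044). The intronic neighbour was called in 16 and the promoter in 13 of 22 alternatives. Both were lost without young 1, aged 1 or aged 3, the former also without young 3 and the latter without young 2, with adjusted p up to 0.090 and 0.15.

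Cyp2c70, which makes the muricholic acids typical of mouse bile, gained accessibility at an exon (chr19:40183531-40185295). The level was 5.65, 7.52 and 7.56 CPM in young and 26.4, 8.24, 11.2 and 15.02 CPM in aged samples. Aged 1 was far above the others and aged 2 only just above the young samples, and the log2 fold change was 1.18 ± 0.32 (SE; adjusted p = 0.045, edgeR). It was called in 12 of 22 alternatives and lost, among others, without young 1, 2 or 3, aged 1 or aged 3, with adjusted p up to 0.14. The promoters of Cyp2c29 (0.48, adjusted p = 0.32) and of Cyp2c68 (1.00, adjusted p = 0.094) did not pass the test.

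**Figure D2:**
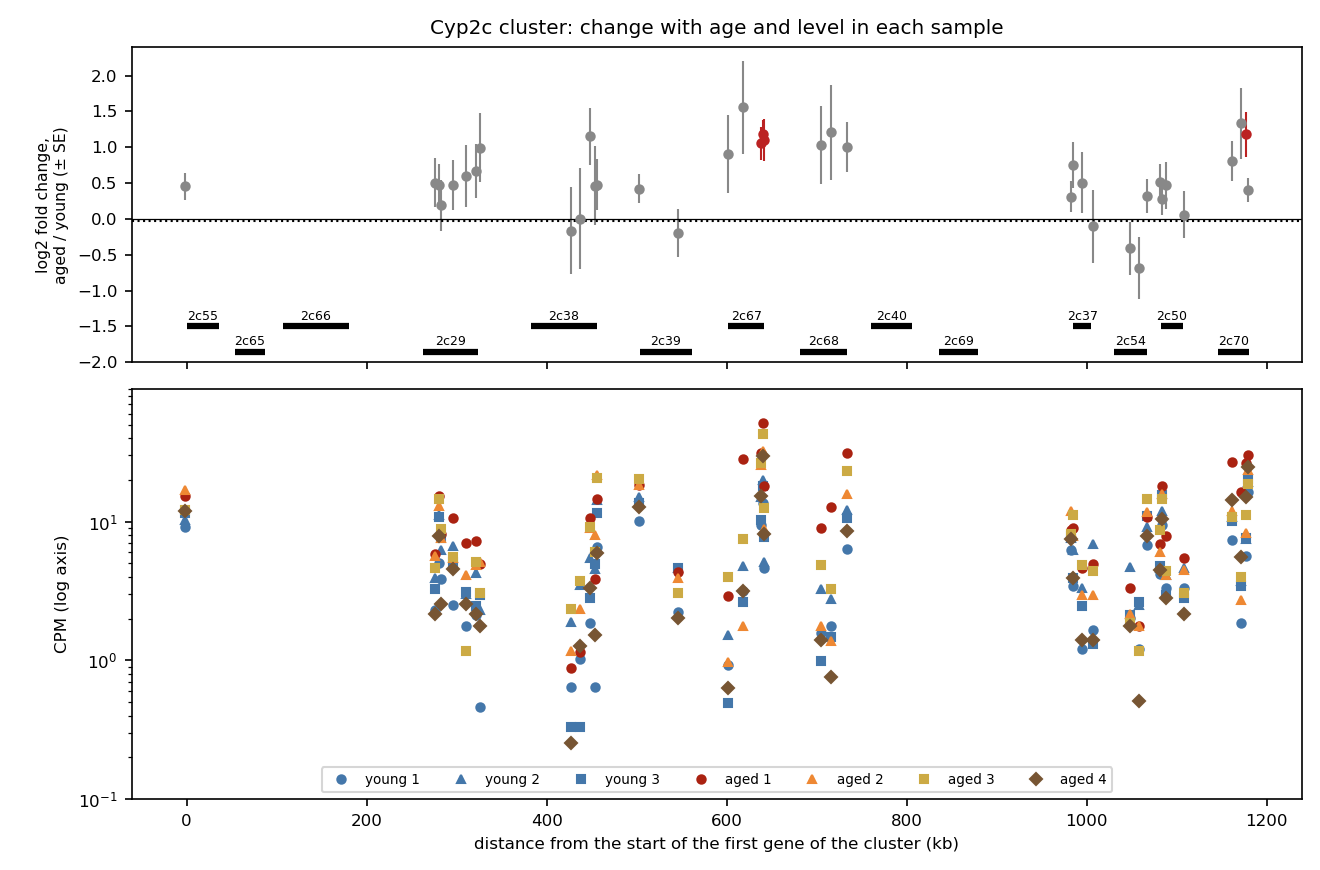
The Cyp2c cluster of chromosome 19, by distance from the start of its first gene. The upper panel gives the log2 fold change with its standard error for each of the 38 regions, red where the adjusted p was under 0.05, with genes as black bars; the lower panel gives CPM of every sample on a log axis. Most points of the upper panel are above 0 (33 of 38), and in the lower panel aged 1 and aged 4 lie far apart at several regions of Cyp2c67, Cyp2c68 and Cyp2c38.

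Of 6 listed genes of vitamin D and retinoic acid metabolism 4 had a promoter region, with 2 gains and 0 losses (4.48% and 2.06% of all promoter regions) and a median of 0.08 (0.09 over all promoter regions). Cyp2r1 makes the circulating form of vitamin D in the liver, and its promoter (chr7:114562508-114563857) was the most accessible of all P450 regions per length, at 57.1 CPM per kb. It measured 64.1, 64.7 and 56.7 CPM in young and 88.1, 77.7, 88.9 and 99.7 CPM in aged samples. Every aged sample was higher, and the log2 fold change was 0.52 ± 0.12 (SE; adjusted p = 0.023, edgeR). The call stood in 15 of 22 alternatives, and among those that lost it were offsets on mean abundance (0.23, adjusted p = 0.22), aged 1 and 3 summed, and the fits without young 1, young 2, aged 1 or aged 3.

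Cyp26a1 clears retinoic acid. Its promoter region (chr19:37695252-37698449) also lies within 2000 bp of Cyp26c1. It measured 34.5, 63.2 and 52.8 CPM in young and 93.6, 81.8, 83.3 and 64.3 CPM in aged samples. Aged 4 and young 2 nearly met, and the log2 fold change was 0.68 ± 0.18 (SE; adjusted p = 0.043, edgeR). The call stood in 10 of 22 alternatives and was lost without young 1, young 3, aged 1, aged 2 or aged 3, with adjusted p up to 0.29. Cyp27b1, the kidney enzyme that activates vitamin D, had a weak region at the start of a non-coding transcript, with none over its RefSeq promoter window. It averaged 2.73 ± 0.127 CPM in the 3 young and 1.21 ± 0.351 CPM in the 4 aged samples (± SD), and missed the threshold by the smallest margin (-1.20, adjusted p = 0.0501). The promoter of Cyp24a1, which degrades vitamin D, was at -0.35 (adjusted p = 0.51).

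The other promoter gains were at Cyp46a1 and Cyp3a13. Cyp46a1 hydroxylates cholesterol and is known mainly from the brain. Its promoter (chr12:108333136-108334570) measured 68.8, 69.0 and 50.2 CPM in young and 94.6, 84.5, 84.3 and 88.3 CPM in aged samples, which did not overlap (0.48 ± 0.13 SE, adjusted p = 0.041, edgeR). This call stood in 9 of 22 alternatives. Cyp3a13, a Cyp3a gene that lies apart from the main Cyp3a cluster, had a promoter (chr5:137921057-137922812) at 31.3, 32.5 and 27.6 CPM in young and 39.8, 45.5, 41.8 and 48.5 CPM in aged samples, also without overlap (0.52 ± 0.12 SE, adjusted p = 0.028, edgeR). This call stood in 13 of 22. Both were lost without young 1, 2 or 3, aged 1 or aged 3, with adjusted p up to 0.38 for Cyp46a1 and 0.17 for Cyp3a13. None of the 17 regions within the main Cyp3a cluster of chromosome 5 was called, where 5.74% of all regions were, and 0 had an unadjusted p under 0.05 (24.6% of all regions). Their median was -0.12. Of these 17 regions 9 have a near-identical copy. The within-age spread described further on was in the top 5% of all regions at 7 of them (41.2%), which makes a call harder to reach.

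None of the 6 losses was among the 53 regions at the start of a coding P450 transcript (2.06% of all promoter regions were losses). In Cyp1a2, the AHR-induced enzyme that oxidises caffeine and arylamines, the region inside the gene (chr9:57681518-57682671) measured 16.8, 11.6 and 13.0 CPM in young and 6.76, 5.88, 5.37 and 5.35 CPM in aged samples. The groups were well apart (13.8 ± 2.67 against 5.84 ± 0.664, SD, n = 3 and 4), and the log2 fold change was -1.22 ± 0.21 (SE; adjusted p = 0.011, edgeR). This call was lost only without young 1, at an adjusted p of 0.064. The downstream flank of Cyp1a2 (chr9:57675564-57676480) measured 13.2, 5.06 and 5.43 CPM in young and 3.25, 2.55, 4.20 and 2.80 CPM in aged samples. Young 1 was far above the others there, and the call (-1.32 ± 0.35, adjusted p = 0.044) stood in 8 of 22 alternatives, being lost when any one sample except young 3 was left out, with adjusted p up to 0.25. The region at the coding start of Cyp1a2 was at -0.21 (adjusted p = 0.48) and a coding start of Cyp1a1 at -0.23 (adjusted p = 0.38), while no region lay over the RefSeq promoter window of Cyp1a1. All 6 Cyp1a regions were below 0, and 0 or 1 of them was above 0 over the alternatives.

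The Cyp2d cluster of chromosome 15, 8 genes over 424 kb, held 3 losses among 18 regions (16.7%; 3.3% of all regions). One was at the end of Cyp2d9, a male-biased testosterone hydroxylase (chr15:82455522-82459857). It measured 147, 153 and 161 CPM in young and 95.1, 91.8, 110.0 and 79.8 CPM in aged samples. All aged samples were lower, and the log2 fold change was -0.71 ± 0.12 (SE; adjusted p = 0.010, edgeR), which was called in all 22 alternatives. An intronic region of Cyp2d9 (chr15:82443250-82444539), which also covers the start of the predicted gene Gm49421, measured 15.7, 14.4 and 22.4 CPM in young and 9.49, 6.67, 7.94 and 7.25 CPM in aged samples (-1.12 ± 0.21, adjusted p = 0.013). It was lost only without young 1, at an adjusted p of 0.054.

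The flank downstream of Cyp2d10 (chr15:82400089-82402375) measured 43.3, 48.9 and 52.3 CPM in young and 28.7, 32.0, 36.0 and 31.9 CPM in aged samples, again without overlap (-0.59 ± 0.12 SE, adjusted p = 0.018, edgeR). It was called in 19 of 22 alternatives, the exceptions being without young 1, young 2 or aged 1, with adjusted p up to 0.070. Coding starts in the same cluster did not pass the test: the start of Cyp2d9 was at -0.07 (adjusted p = 0.72), that of Cyp2d10 at 0.04 (adjusted p = 0.87) and that of Cyp2d22 at 0.26 (adjusted p = 0.19). The Cyp2d median was -0.19, with a range of -0.30 to -0.12 over the alternatives, and 1 to 4 losses. A single gain was called there with GC offsets, which left 8 of the 18 regions above 0, and no other alternative called one.

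Cyp2a12, a steroid hydroxylase, lost accessibility in its downstream flank (chr7:27037730-27038699). The level was 8.42, 8.16 and 9.37 CPM in young and 5.18, 4.71, 5.84 and 4.58 CPM in aged samples, without overlap (-0.77 ± 0.21 SE, adjusted p = 0.048, edgeR). This was the called region closest to the threshold. It stood in 6 of 22 alternatives and was lost when any one of the 7 samples was left out, with adjusted p up to 0.18. The promoter of Cyp2a12 was at -0.03 (adjusted p = 0.92).

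**Figure D3:**
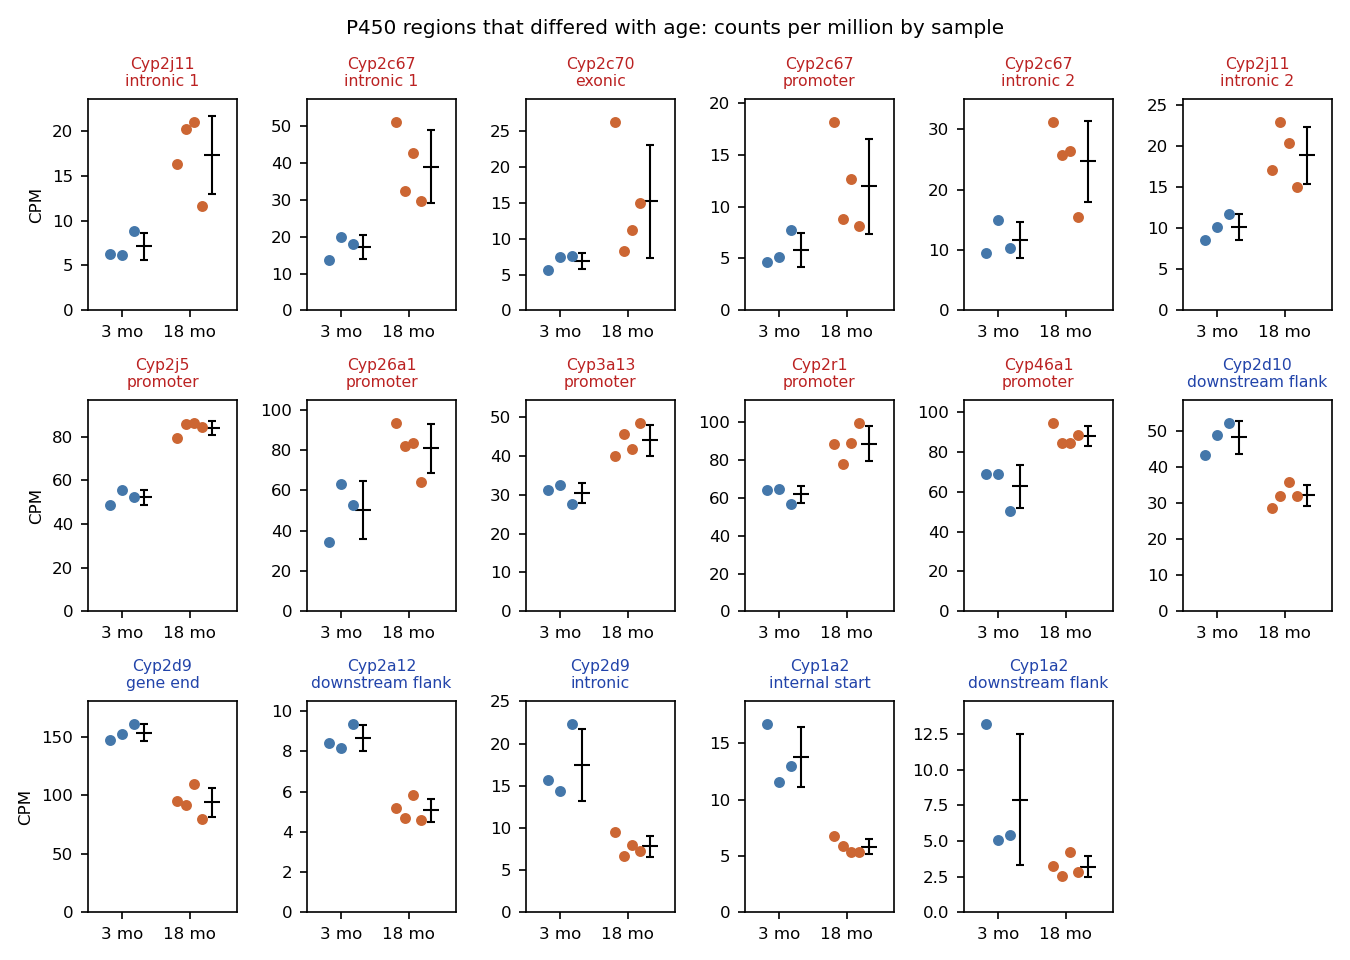
CPM in each sample at the 17 P450 regions with an adjusted p under 0.05, gains (red titles) and losses (blue titles), ordered within each by log2 fold change. Points are samples in the order 1 to 3 (3 months, blue) and 1 to 4 (18 months, orange), and crosses with bars are the mean ± SD; each vertical axis starts at 0. In every panel the aged points lie on one side of the young points, by the narrowest ratios at the promoter of Cyp26a1, the second intronic region and the promoter of Cyp2c67, and the exon of Cyp2c70.

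By role of the enzyme, most P450 promoters did not pass the test. The most accessible promoter region of each gene was used, which leaves out the internal Cyp1a2 loss, and over all promoter regions 4.48% were gains, 2.06% were losses and the median was 0.09. Of the 14 listed genes of drug metabolism 11 had a promoter region, of which Cyp2j5 and Cyp3a13 gained accessibility and 0 lost it (median 0.19). The promoter of Cyp2e1, which oxidises ethanol, was at 0.29 (adjusted p = 0.32), that of Cyp3a11, a major drug-metabolising enzyme, at -0.44 (adjusted p = 0.38), and that of Cyp2a5, the coumarin hydroxylase, at -0.34 (adjusted p = 0.53). Among the 6 genes of bile acid and oxysterol synthesis, all with a promoter region, Cyp46a1 gained accessibility and 0 lost it (median 0.28). Cyp7a1, the rate-limiting enzyme of bile acid synthesis, was at 0.32 (adjusted p = 0.49), Cyp27a1 at 0.30 (adjusted p = 0.13), Cyp7b1 at 0.27 (adjusted p = 0.33) and Cyp8b1, needed for cholic acid, at -0.17 (adjusted p = 0.60). Of 7 fatty acid hydroxylase genes 5 had a promoter region and none of them was called (median 0.08), while 1 had an unadjusted p under 0.05, as did 32.1% of all promoter regions. Each gene was given 1 role, and Cyp2j5, whose subfamily also epoxidises fatty acids, was counted under drug metabolism. Cyp4f14 was at 0.33 (adjusted p = 0.12) and Cyp4a14 at -0.38 (adjusted p = 0.75). Of 6 genes of steroid hormone synthesis only Cyp17a1 had promoter regions. The most accessible of its 3 lay at the start of a non-coding transcript (0.26, adjusted p = 0.32), and the one at the coding start was at 0.29 (adjusted p = 0.31).

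**Figure D4:**
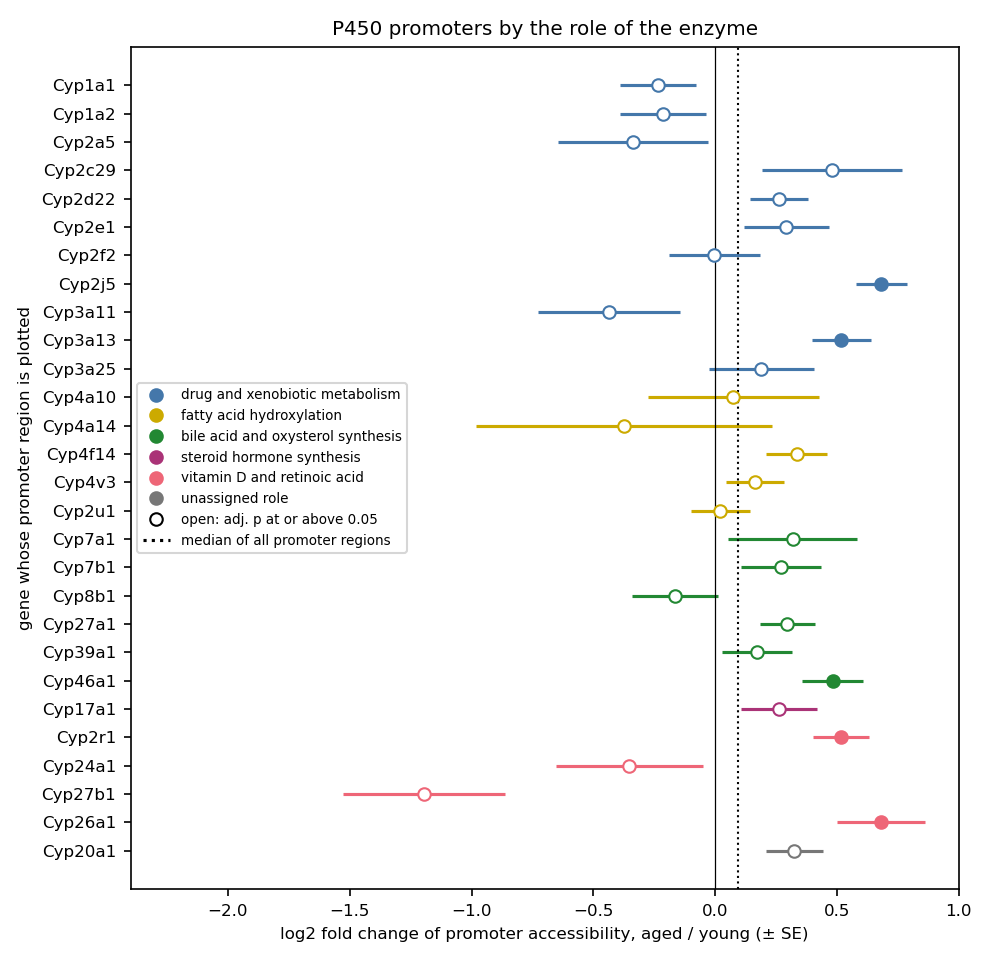
Log2 fold change of promoter accessibility, aged over young, with its standard error, for the listed P450 genes that have a promoter region, coloured by the role of the enzyme; filled points had an adjusted p under 0.05 and the dotted line is the median of all promoter regions. The filled points (Cyp2j5, Cyp26a1, Cyp3a13, Cyp2r1, Cyp46a1) all lie between 0.48 and 0.68, and the bar of Cyp4a14 is the longest.

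Genes that work with the P450 enzymes were read from lists as well. Of 7 redox partners, all with a promoter region, only P450 oxidoreductase (Por), which passes electrons to the microsomal enzymes, gained accessibility. Its promoter went from 112 ± 14.8 to 161 ± 7.17 CPM (± SD over 3 young and 4 aged samples; log2 fold change 0.52, adjusted p = 0.024, edgeR). Of 12 transcription factors that regulate P450 genes, only Arnt, the partner of AHR, gained accessibility, from 44.7 ± 2.47 to 62.1 ± 6.20 CPM (0.47, adjusted p = 0.032, edgeR). None of these promoters was called as a loss. The Por and Arnt calls are given from the fit of all samples alone. The promoters of Cyp2r1 and Cyp3a13, with similar adjusted p in that fit (0.023 and 0.028), lost their calls without young 1, young 2, aged 1 or aged 3. Over all promoter regions 4.48% were gains, and the median was 0.18 for the redox partners, 0.20 for the regulators and 0.09 for all promoter regions. Ahr itself was at 0.10 (adjusted p = 0.61), Nr1i2 (PXR) at 0.17 (adjusted p = 0.50) and Nr1i3 (CAR) at 0.11 (adjusted p = 0.71). Many P450 genes differ between the sexes in rodent liver. The 5 male-biased genes listed had 19 regions, at 4 of the genes, and these held the 2 Cyp2d9 losses (10.5%; 3.3% of all regions) and 0 gains (2.44% of all regions), with a median of 0.00 against -0.04 over all regions, and the 9 female-biased genes had 10 regions, at 6 of the genes, with 0 calls (5.74% of all regions), 0 with an unadjusted p under 0.05 (24.6% of all regions) and a median of 0.35. Of these 10 regions, 6 have a near-identical copy.

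The P450 regions also varied more than most between samples of the same age. For each region the residual variation within ages was divided by the trend of all regions at its level, and the highest 5% of all regions had a ratio above 3.40. Of the P450 regions 43 (21.8%; 5% of all regions by construction) were above it, and their median ratio was 1.33, against 0.94 over all. The share was 13.2% (26 regions) in young samples alone and 20.8% (41) in aged samples alone. It was 16.2% (32) to 24.9% (49) with any one sample left out and 18.1% (31) without regions that have a near-identical copy. The 43 regions belonged to 19 genes, among them all 5 regions of Cyp7a1, all 3 of Cyp2a5, all 3 of Cyp2c68, 6 of 7 of Cyp3a25, 4 of 5 of Cyp2c38, 4 of 7 of Cyp2c29 and 2 of 3 of Cyp2e1. The Cyp4f (0 of 20), Cyp2d (0 of 18) and Cyp2j (0 of 9) regions had no member above it. Median GC content was 44.0% in the 43 variable regions and 47.0% in the other 154.

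Different genes were high in different samples of one age. Across the 7 regions of Cyp3a25, aged 2 deviated from the aged mean by 1.16 and aged 1 by -0.95 on the log2 scale, while young samples deviated from the young mean by -0.24 to 0.12. Its downstream flank (chr5:145974851-145976851) measured 27.7, 13.1 and 29.3 CPM in young and 11.8, 48.8, 18.0 and 15.5 CPM in aged samples. Aged 2 thus stood far above the other aged samples, and young 2 below the other young ones (log2 fold change 0.01, adjusted p = 0.99). Across the 3 regions of Cyp2c68 it was aged 1 that was high (1.46) and aged 4 low (-1.24). In the 2 regions of Cyp4a14, a fatty acid omega-hydroxylase, aged 3 was high (1.20) and aged 4 low (-1.11), and young 3 was high (0.84) and young 1 low (-0.83).

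Cyp7a1 varied within both ages. Over its 5 regions young 2 deviated by 0.76 and young 3 by -0.66, and aged 1 by 0.80 and aged 4 by -1.23. Its downstream flank (chr4:6264274-6265188) measured 9.53, 18.6 and 2.47 CPM in young and 16.8, 10.8, 7.47 and 2.16 CPM in aged samples, a spread within each age far wider than the difference between them (-0.19, adjusted p = 0.86). The widest ratio, 18.2, was at an intron of Cyp2c67 (chr19:39624328-39625767), where aged 1 measured 28.4 CPM and the other aged samples 1.77, 7.47 and 3.18 CPM, against 3.15, 4.76 and 2.63 CPM in young samples. This region had the highest fold change of all P450 regions (1.56 ± 0.65 SE) and an adjusted p of 0.16, and its sequence has a near-identical copy.

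Aged 4 was the lowest aged sample in 29 of the 43 variable regions (67.4%) and the highest in 0, while among all 2784 regions of the top 5% it was the lowest in 28.0% and the highest in 50.1%. Aged 1 was the highest aged sample in 18 (41.9%), against 12.8% of all these regions. In young liver, young 1 was the lowest in 24 of the 43 (55.8%; 36.1% of all these regions) and young 2 the highest in 24 (55.8%; 39.4%). Of the called regions, the exon of Cyp2c70 and the promoter of Cyp26a1 were among the 43. Which of the aged samples came from 1 animal is not given, so that differences between lobules and between animals cannot be told apart.

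**Figure D5:**
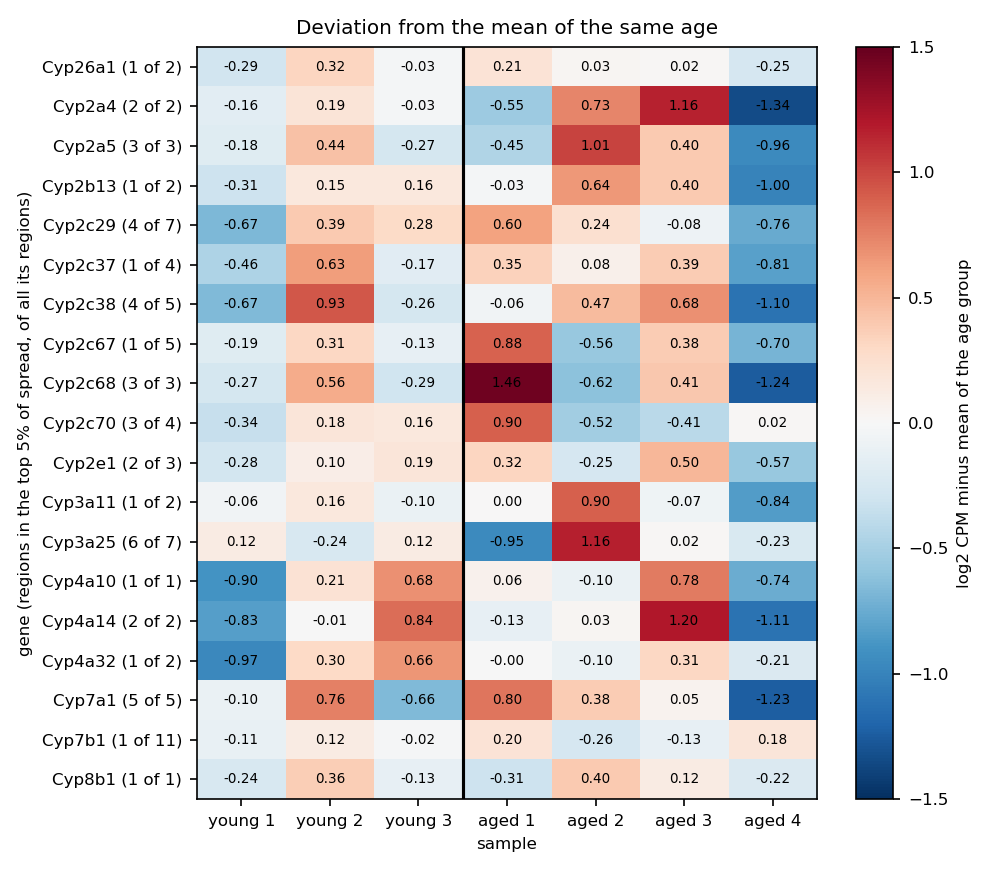
Mean deviation of log2 CPM from the mean of the same age in each sample (columns), over all regions of each gene (rows), for the 19 genes with a region in the top 5% of within-age spread; parentheses give how many of the gene's regions are in the top 5%. Red is above and blue below the mean of the age. Aged 4 is at -1.34 for Cyp2a4 and -1.24 for Cyp2c68, while aged 2 is highest for Cyp3a25 (1.16) and aged 1 for Cyp2c68 (1.46).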

How the data were processed

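ATAC-seq was carried out on 3 young and 4 aged liver samples. The authors deposited raw counts of reads in each consensus region, without normalization. According to the methods and the submitters' processing notes, the authors trimmed reads with cutadapt 1.13, aligned them to GRCm38 with Bowtie2 2.4.1, discarded poorly mapped reads, reads from mitochondria and PCR duplicates, called peaks per library with MACS2 2.2.7, removed blacklisted regions and counted with featureCounts. All count columns were mapped to a sample by name, and 0 were left over. Total counts per sample were 10384725, 25461110 and 5709327 in young 1 to 3 and 11717992, 5108283, 4474652 and 8397956 in aged 1 to 4, and the median count per region was 35 to 241. Shallower libraries carry more counting error, and reads without molecular identifiers are not independent molecules. The chi-square per degree of freedom between libraries was 2.38 to 11.3 over all pairs, so no library was a duplicate within sampling noise.

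All 55680 regions entered 1 fit with edgeR 4.0.16 in R 4.3.3 (TMM, quasi-likelihood test with age alone in the model, Benjamini-Hochberg adjustment at 0.05). The p-values measure the spread between these samples, some of which share an animal. CPM used TMM-scaled library sizes, and log2 values a prior count of 2. Regions were assigned to genes with GENCODE M21, with coordinates as in the deposited table. The class of a region was promoter, exonic, intronic or flank, in this order, set by its own gene for P450 regions. For all regions it was set by any gene, with intergenic in place of flank. The within-age ratio was the quasi-dispersion of a region over the trend at its level. Named regions were all called P450 regions, up to 12 in each direction, and the most accessible promoter region of the listed genes. The members, gene lists and markers were chosen with earlier results of these data known. Copies were found with minimap2 2.31, sequences were read with pysam 0.24.0 and samtools 1.23.1, and tables and figures were made with Python 3.11.15 (numpy 2.4.6, pandas 2.3.3, matplotlib 3.10.9). The fit was tested on simulated data with known changes.

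Alternatives were DESeq2 1.42.0, the test of the study's methods, limma 3.58.1 (voom), RLE factors, total counts, loess offsets with a span of 0.3 on mean abundance or on GC content, filterByExpr, a minimum of 10 counts in every sample, each sample left out, each pair of aged samples summed, a replicate block, a threshold of 0.01, gene bodies without flanks, promoters of TSS ± 1000 bp and the removal of near-identical copies. Promoters of protein-coding transcripts only and the within-age spread without single samples, in each age alone or without copies were chosen after seeing the data.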

Additional observations from a re-analysis of the deposited data

Results flagged for a closer look

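Among 40 groups of 4 aged samples tested for a stray value, 1 passed the test, no more than chance gives at about 1 in 20 groups. At the promoter of Cyp7a1 (chr4:6275118-6276095) aged 4 was at 3.28 log2 CPM and the rest of the aged group at 4.32 to 4.38, a gap of 0.946 of the whole range, which is above Dixon's critical value. In CPM, aged 4 measured 9.55 and the others 20.6, 19.8 and 20.3, and the young samples measured 11.8, 18.9 and 10.4.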

How the results depend on the processing

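No named region changed direction with a call under any alternative, and 24 of 504 recomputed values of 23 uncalled named regions changed sign without a call. The 11 gains became 2 at a threshold of 0.01, 3 with aged 1 and 3 summed, 6 with at least 10 counts in every sample (176 regions tested), 17 with GC offsets, 3 with abundance offsets and 6 with total counts, and 1 to 16 with single samples left out. The 6 losses became 0 at 0.01, 3 in gene bodies alone and 10 with total counts, and 1 to 7 with single samples left out. The 6 promoter gains became 1 at 0.01, 1 with aged 1 and 3 summed, 3 with aged 2 and 3 summed, 2 with at least 10 counts, 10 with GC offsets, 0 with abundance offsets and 2 with total counts, and 1 to 8 with single samples left out. The 2 promoter losses became 0 at 0.01 and 0 with protein-coding transcripts only, and 1 to 2 with single samples left out. Of the 17 called regions, 7 were called with aged 1 and 3 summed, 10 with at least 10 counts and 7 with abundance offsets, and 2 to 15 with single samples left out. The 43 variable regions became 26 in young samples alone, and 32 to 49 with single samples left out. DESeq2 gave 14 gains and 6 losses and voom 11 and 8. The threshold and sample changes test less or with fewer samples, and the cause of the other shifts was not tested.

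Young and aged samples of the same replicate number did not deviate together, with correlations of -0.01, 0.04 and -0.04 for numbers 1 to 3, so the numbers were not taken as pairs. With the replicate number as a block there were 16 gains and 5 losses, 8 and 2 at promoters, and 14 of the 17 remained called. Those lost were the promoter of Cyp2r1 (adjusted p = 0.051), the exon of Cyp2c70 (adjusted p = 0.053) and the downstream flank of Cyp2a12 (adjusted p = 0.078). Fitting the block moved the calls over all regions from 3198 to 4078. Number 4 occurs among the aged samples alone, so the block took up aged 4 and that sample did not enter the age contrast. The fit without aged 4 gave 16 gains, 4 losses and 4230 calls over all regions. The shallowest library had a median of 35 counts per region, and weak regions such as the promoter of Cyp27b1 rest on few reads (4 to 13 counts in aged samples).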
